A study of Mus musculus with 12 samples.

Results

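Expression of 10 genes of the tumour necrosis factor (TNF) and TNF receptor superfamilies was followed in mouse bone marrow-derived macrophages (BMDMs), namely the 6 ligand genes Tnf, Tnfsf10, Tnfsf12, Tnfsf13b, Tnfsf15 and Ltb and the 4 receptor genes Fas, Tnfrsf1a, Tnfrsf1b and Tnfrsf21. They were taken by symbol from the 23997 genes of the deposited tables, and all 10 were found there. The cells came from the bone marrow of male mice of the C57BL/6 strain, aged 8 to 10 weeks, and were grown for 7 d in recombinant human macrophage colony-stimulating factor at 10 ng/ml. Poly(A) RNA was sequenced in 12 libraries, 3 in each of 4 groups: untreated WT, untreated Pim1-/-, WT after LPS (lipopolysaccharide, the bacterial ligand of the receptor TLR4) at 100 ng/ml for 4 h, and Pim1-/- after the same treatment. The Pim1-/- mice carried a CRISPR-Cas9 deletion of exons I to V of Pim1, a gene for a serine/threonine kinase. Both genotypes were on the same strain background. The labels do not say whether the 3 libraries of a group came from separate mice, so the spread between them may be technical.

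TNF superfamily ligands are type II membrane proteins that act as trimers, either on the cell surface or after being cut loose by a protease. They bind receptors of the TNF receptor superfamily. Receptors with a death domain inside the cell can recruit caspase 8 and start cell death, while others, or the same receptors in another complex, call in TRAF adaptors and ubiquitin enzymes that switch on NF-κB and MAP kinases. Macrophages are a main source of soluble TNF after contact with LPS, and they also respond to it through both TNF receptors.

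The promoters shown here belong to the 3 ligands that rose with LPS and to both TNF receptors, whose LPS responses differed between the genotypes. Each sequence is the 250 bases before the RefSeq transcription start, written 5′ to 3′ on the strand of the gene, from the RefSeq table for GRCm38.p6, and gene positions given further on are GENCODE's for the same build, whose starts can differ. Capitals mark matches to 4 motifs that were searched on both strands, with overlapping matches joined. The general form of an NF-κB site was taken as GGG and CC with any 5 bases between them. The core of an interferon-stimulated response element was taken as a pair of GAAA with any 2 bases between them. The AP-1 site was TGANTCA. The TATA box was TATAAA.
Tnf, chr17:35202008-35202257, minus strand: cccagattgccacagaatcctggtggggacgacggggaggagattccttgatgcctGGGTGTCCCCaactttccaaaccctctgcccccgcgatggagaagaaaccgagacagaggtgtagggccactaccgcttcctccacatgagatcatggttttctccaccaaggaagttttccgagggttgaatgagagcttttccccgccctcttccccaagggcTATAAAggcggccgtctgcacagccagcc
Tnfsf10, chr3:27316827-27317076, plus strand: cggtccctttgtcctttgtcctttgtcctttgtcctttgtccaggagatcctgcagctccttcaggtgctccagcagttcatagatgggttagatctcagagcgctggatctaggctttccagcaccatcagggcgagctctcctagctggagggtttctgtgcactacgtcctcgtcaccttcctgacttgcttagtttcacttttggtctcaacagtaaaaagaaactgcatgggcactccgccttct
Tnfsf15, chr4:63745060-63745309, minus strand: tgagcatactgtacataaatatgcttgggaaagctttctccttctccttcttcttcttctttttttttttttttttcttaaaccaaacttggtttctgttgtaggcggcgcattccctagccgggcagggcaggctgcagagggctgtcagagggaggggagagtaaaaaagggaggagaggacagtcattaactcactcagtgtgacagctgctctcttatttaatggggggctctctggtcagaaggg
Tnfrsf1a, chr6:125349473-125349722, plus strand: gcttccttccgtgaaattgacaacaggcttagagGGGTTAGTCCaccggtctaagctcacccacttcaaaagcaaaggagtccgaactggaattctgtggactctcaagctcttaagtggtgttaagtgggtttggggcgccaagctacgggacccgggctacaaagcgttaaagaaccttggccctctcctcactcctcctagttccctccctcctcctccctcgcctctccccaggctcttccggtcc
Tnfrsf1b, chr4:145246871-145247120, minus strand: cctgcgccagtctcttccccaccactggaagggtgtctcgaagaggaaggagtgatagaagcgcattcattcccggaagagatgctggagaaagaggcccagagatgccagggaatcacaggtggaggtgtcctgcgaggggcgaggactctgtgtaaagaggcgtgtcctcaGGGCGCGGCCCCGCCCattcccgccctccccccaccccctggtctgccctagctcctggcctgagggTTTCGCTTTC

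In the Tnf window the NF-κB form lay at -194 to -185 and the TATA box at -29 to -24 from the start. The Tnfrsf1a window held the NF-κB form at -216 to -207. The Tnfrsf1b window held 3 overlapping matches to it between -77 and -62 and the interferon element at -10 to -1, directly before the start. None of the 4 motifs was found in the Tnfsf10 and Tnfsf15 windows, which says only that these letters are not in these 250 bases. Promoter entries matched 9 of the 10 genes, and Tnfsf12 had none. Of the 9, 5 held the NF-κB form (45.8% of all 32851 promoter entries of this length did), 2 the interferon element (2.98%), 2 the AP-1 form (6.75%) and 1 the TATA box (12.4%). The motif letters were chosen after these sequences had been seen, and a match is a description of the letters, not of a factor bound there.

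Values are FPKM (fragments per kilobase of transcript, on the library scale of the deposited values), which allow levels to be compared between genes because they are set per length. Differences were tested with limma on log2(FPKM + 1), so that fold changes of genes near or below 1 FPKM are understated. A gene was called when it differed over 2-fold with an unadjusted p under 0.05 and a Benjamini-Hochberg adjusted p under 0.1 over the 10581 genes that reached 1 FPKM in at least 3 libraries. A second rule, an adjusted p under 0.05 at any fold, is given beside it. Of the 10 members, 9 passed this filter and Ltb did not. With libraries this alike within a group, the second rule passed most genes of the table, so it is read only beside its share of all genes.

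Library facts bear on all values. The FPKM sum was 452511 to 489710 in untreated and 713307 to 849323 after LPS, and Pearson's r on the log2 scale within a group was 0.998 to 0.999. The deposited tables hold no read counts. The smallest FPKM steps of single-transcript genes placed the divisor of the values at 37.6 to 45.9 M fragments for untreated libraries and 20.6 to 31.8 M after LPS (M, mega). A fragment was thus a smaller step in an untreated library, which resolved low values better. The median ratio of a library's values to the geometric means over all libraries was 0.996 to 1.02. The values thus already lay near a common median scale, and the divisor need not be the number of fragments mapped. For Pim1 itself, untreated WT libraries averaged 22.9 ± 1.80 FPKM (SD, n = 3) and untreated Pim1-/- libraries 8.73 ± 0.752 FPKM. After LPS it was at 645 ± 17.8 and 219 ± 15.6 FPKM, so the Pim1-/- libraries kept 38.1% and 33.9% of the WT level over a gene whose deletion is stated for exons I to V. All 9 macrophage markers looked up (Adgre1, Csf1r, Cd68, Itgam, Fcgr1, Mertk, Lyz2, Mrc1 and Cd14) were present. Of 35 markers of dendritic cells, neutrophils, lymphocytes, mast cells and stromal cells, 29 stayed under 1 FPKM in every group mean and the highest reached 3.85 FPKM (S100a8).

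**Figure D1:**
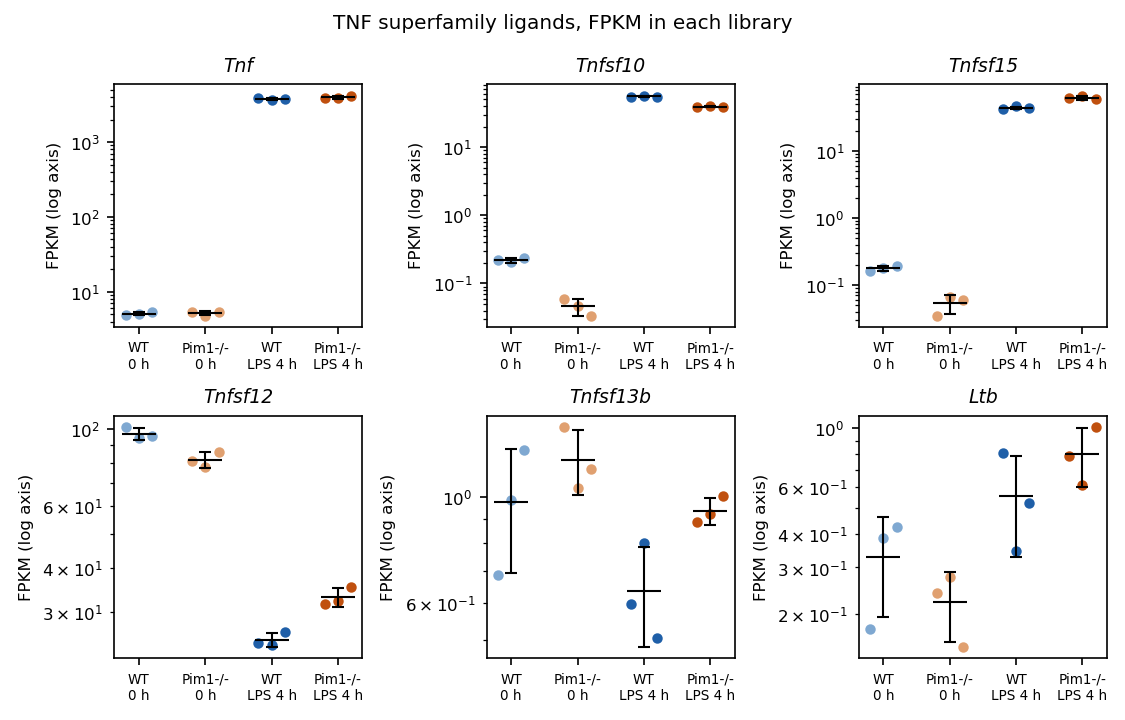
FPKM (vertical axis, logarithmic, a scale for each gene) of the 6 ligand genes in each library, by genotype and time of LPS. Points are libraries, black bars the mean and error bars the SD of 3 libraries. Tnf sits at 4.77 to 5.37 FPKM in all untreated libraries and at 3641 to 4184 FPKM in all LPS libraries, with the genotypes overlapping in both.

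Tnf (chr17:35199381-35202007, minus strand), the founding ligand and the acute inflammatory cytokine of macrophages, reached the highest level of the members after LPS, with overlapping genotypes. Its FPKM were 4.93, 4.98 and 5.35 in untreated WT, 5.31, 4.77 and 5.37 in untreated Pim1-/-, 3846, 3641 and 3715 in WT after LPS, and 3850, 3842 and 4184 in Pim1-/- after LPS. The 2 genotypes overlapped before and after LPS, and the 2 times were apart by a factor of 734 in WT and 769 in Pim1-/-. After LPS the log2 fold change of Pim1-/- over WT was 0.08 (95% interval -0.02 to 0.19, adjusted p = 0.135). In untreated cells it was 0.01 (interval -0.09 to 0.12, adjusted p = 0.809). The response to LPS differed by 0.07 between genotypes (interval -0.08 to 0.22, adjusted p = 0.403). Quantile normalization, which forces the 12 libraries to 1 distribution, gave 0.30 after LPS with an adjusted p of 2.04e-04. For the difference of responses it gave 0.26 with an adjusted p of 0.00983. After LPS, Tnf made up 76.3% to 77.1% of the summed FPKM of the 10 members in WT libraries and 82.9% to 83.3% in Pim1-/- libraries.

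Tnfsf10 (chr3:27317028-27342427, plus strand) encodes TRAIL, a ligand that induces death through death receptors and is known as an interferon-induced gene. Its FPKM were 0.217, 0.203 and 0.239 in untreated WT, 0.0595, 0.0473 and 0.0335 in untreated Pim1-/-, 54.5, 57.0 and 54.4 in WT after LPS, and 39.2, 40.6 and 38.3 in Pim1-/- after LPS. Every Pim1-/- library was below every WT library at both times. After LPS the Pim1-/- level was 71.2% of WT, a log2 fold change of -0.48 (SE 0.0457, adjusted p = 1.27e-07). In untreated cells it was 21.3% of WT, but at a level where the pseudocount hides most of the ratio: the log2 fold change was -0.22 (adjusted p = 4.43e-04) and became -1.13 with a pseudocount of 0.1. Both genotypes rose with LPS, by 5.53 in WT and 5.27 in Pim1-/- on the log2 scale. The difference between these 2 responses was -0.26 (adjusted p = 0.00266), reversed to 0.64 with a pseudocount of 0.1 and was -0.04 (adjusted p = 0.618) after quantile normalization, so its direction depends on how values under 1 FPKM are treated.

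Tnfsf15 (chr4:63727084-63745113, minus strand) encodes TL1A, a ligand that costimulates T cells and innate lymphoid cells. Its FPKM were 0.164, 0.180 and 0.194 in untreated WT, 0.0348, 0.0664 and 0.0606 in untreated Pim1-/-, 42.8, 46.0 and 43.6 in WT after LPS, and 60.7, 66.9 and 59.2 in Pim1-/- after LPS. The order of the genotypes turned over: all Pim1-/- libraries were below all WT libraries before LPS and above them after it. The untreated levels correspond to about 19, 23 and 27 fragments a library in WT and 5, 8 and 8 in Pim1-/-, as estimated from the FPKM steps and the length of its single annotated transcript. After LPS the Pim1-/- level was 141% of WT, with a log2 fold change of 0.49 (SE 0.0530, adjusted p = 6.07e-07). In untreated cells the log2 fold change was -0.16 (adjusted p = 0.0120) with a pseudocount of 1, and -0.86 with 0.1. The response to LPS was larger in Pim1-/- by 0.65 (SE 0.0750, adjusted p = 2.44e-06), and it passed the 2-fold rule at 1.36 with a pseudocount of 0.1.

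Tnfsf12 (chr11:69686250-69695849, minus strand) encodes TWEAK, which acts through the receptor Fn14 (Tnfrsf12a). It was the most abundant ligand gene of untreated cells and the only tested ligand gene that fell with LPS past the 2-fold rule. Its FPKM were 101, 93.9 and 95.1 in untreated WT, 80.9, 77.6 and 86.0 in untreated Pim1-/-, 24.5, 24.1 and 26.3 in WT after LPS, and 31.6, 32.3 and 35.3 in Pim1-/- after LPS. Here too the order of the genotypes turned over with no overlap at either time. LPS left 25.9% of the untreated level in WT and 40.6% in Pim1-/-, log2 fold changes of -1.91 and -1.28, and these responses differed by 0.63 (SE 0.0758, adjusted p = 3.46e-06). The genotype difference was -0.24 (adjusted p = 7.31e-04) before LPS and 0.39 (adjusted p = 7.56e-06) after it. The deposited tables also carry the read-through gene Tnfsf12Tnfsf13 over the same exons and the neighbour Tnfsf13, so the split of fragments between these 3 genes is uncertain.

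Tnfsf13b (chr8:10006467-10039072, plus strand), which encodes the B cell survival factor BAFF, and Ltb (chr17:35194439-35196320, plus strand), which encodes the membrane ligand lymphotoxin β and ends 3061 bases from Tnf, were near the limit of what these libraries resolve. The FPKM of Tnfsf13b were 0.686, 0.988 and 1.25 in untreated WT, 1.40, 1.04 and 1.14 in untreated Pim1-/-, 0.597, 0.801 and 0.506 in WT after LPS, and 0.886, 0.919 and 1.00 in Pim1-/- after LPS. Only the LPS groups were apart between genotypes, with a log2 fold change of 0.25 (adjusted p = 0.0282). That adjusted p rose above 0.05 when 1 of 4 libraries was left out, namely WT replicate 1 (0.0695), WT replicate 3 (0.117), Pim1-/- replicate 2 (0.0502) or Pim1-/- replicate 3 (0.0785), and to 0.154 after quantile normalization and 0.0659 with no filter on low values. The fall with LPS in WT was -0.27 (adjusted p = 0.0162), and its adjusted p rose to 0.107 without untreated WT replicate 3 and to 0.0745 without LPS-treated WT replicate 3. Under quantile normalization this fall was absent, at 0.0041 (adjusted p = 0.969). The FPKM of Ltb were 0.176, 0.386 and 0.428 in untreated WT, 0.242, 0.276 and 0.150 in untreated Pim1-/-, 0.805, 0.346 and 0.526 in WT after LPS, and 0.787, 0.613 and 1.01 in Pim1-/- after LPS. Ltb was not tested, its genotypes overlapped at both times, and the 2 times were apart only in Pim1-/-.

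**Figure D2:**
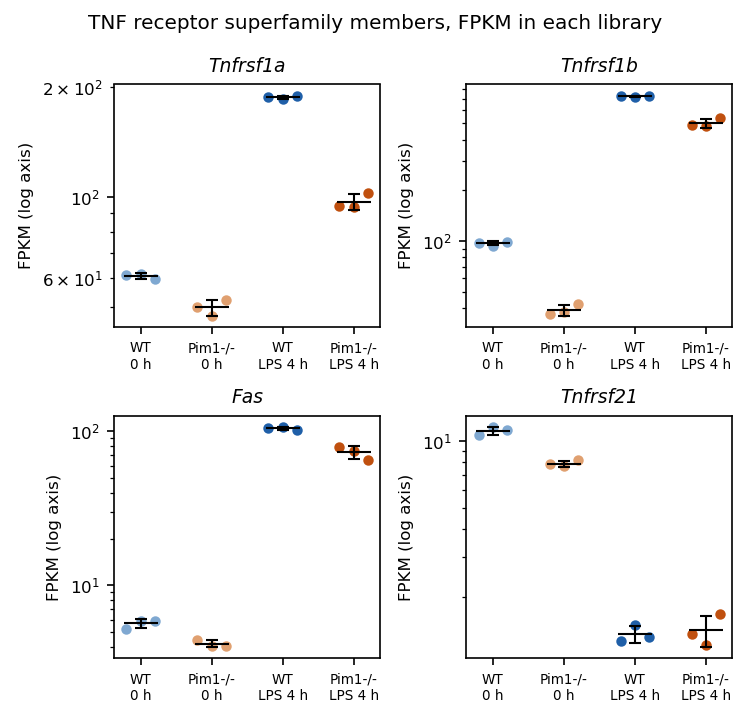
FPKM (vertical axis, logarithmic, a scale for each gene) of the 4 receptor genes in each library, by genotype and time of LPS. Points are libraries, black bars the mean and error bars the SD of 3 libraries. Tnfrsf1a, Tnfrsf1b and Fas lie lower in every Pim1-/- library than in any WT library of the same time, and Tnfrsf21 does so before LPS alone.

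Of the 4 receptor genes, 3 were lower in Pim1-/- at both times in the deposited values, at an adjusted p under 0.05. By this rule 42% of all tested genes were lower untreated and 41.7% after LPS. Tnfrsf1a (chr6:125349362-125362484, plus strand) encodes TNFR1, the death domain receptor through which soluble TNF mainly acts. Its FPKM were 61.1, 61.2 and 59.4 in untreated WT, 49.8, 47.2 and 52.2 in untreated Pim1-/-, 187, 185 and 189 in WT after LPS, and 94.2, 93.8 and 103 in Pim1-/- after LPS. LPS-treated WT cells thus stood apart from the other 3 groups, and the Pim1-/- level after LPS was 51.8% of WT. The genotype difference widened from -0.28 (SE 0.0455, adjusted p = 4.44e-05) to -0.94 (adjusted p = 4.51e-11), just short of 2-fold. Quantile normalization brought the difference after LPS to -0.64. LPS raised Tnfrsf1a 3.09-fold in WT and 1.95-fold in Pim1-/-, and these responses differed by -0.66 (SE 0.0643, adjusted p = 3.79e-07), or by -0.37 after quantile normalization.

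Tnfrsf1b (chr4:145213463-145246870, minus strand) encodes TNFR2, a receptor without a death domain that membrane-bound TNF activates best and that signals through TRAF2. Its FPKM were 97.6, 94.0 and 99.2 in untreated WT, 36.7, 37.6 and 42.1 in untreated Pim1-/-, 729, 713 and 726 in WT after LPS, and 485, 481 and 536 in Pim1-/- after LPS. The Pim1-/- mean was 40.1% of WT before and 69.3% after LPS. The log2 fold change was -1.30 (SE 0.0529, adjusted p = 6.01e-12) before and -0.53 (adjusted p = 2.23e-07) after LPS. LPS raised Tnfrsf1b 7.45-fold in WT and 12.9-fold in Pim1-/-, responses that differed by 0.77 (SE 0.0748, adjusted p = 3.80e-07). The LPS responses of the 2 TNF receptor genes thus differed between the genotypes in opposite directions. Division by Actb moved the median of all genes to 0.72 for this difference, with Tnfrsf1a below it (0.41) and Tnfrsf1b above it (1.86). Their ratio within a library does not depend on scaling. The ratio of Tnfrsf1b to Tnfrsf1a FPKM was 1.54 to 1.67 in untreated WT and 0.738 to 0.807 in untreated Pim1-/-, so that the genotypes differed in which receptor transcript was the more abundant. After LPS the ratio was 3.84 to 3.89 in WT and 5.13 to 5.22 in Pim1-/-, with the order of the genotypes turned over and no overlap.

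Fas (chr19:34290666-34327772, plus strand) encodes CD95, a death domain receptor. Its FPKM were 5.19, 5.92 and 5.90 in untreated WT, 4.45, 4.07 and 4.05 in untreated Pim1-/-, 105, 106 and 102 in WT after LPS, and 79.1, 74.7 and 65.4 in Pim1-/- after LPS. Pim1-/- cells had 74.0% of the WT level before and 69.9% after LPS, log2 fold changes of -0.36 (adjusted p = 1.26e-04) and -0.52 (adjusted p = 2.97e-06). Both genotypes rose, 18.4-fold in WT and 17.4-fold in Pim1-/-, and the difference of the responses was -0.16 (interval -0.35 to 0.04, adjusted p = 0.153), with its sign turned to 0.14 by quantile normalization. Its ligand gene Fasl was listed at 0 in all 12 libraries, a gene looked up for this pairing after its values had been seen.

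Tnfrsf21 (chr17:43016555-43089189, plus strand) encodes DR6, a death domain receptor best known from neurons. It had the largest fall with LPS among the members in the deposited values, while quantile normalization put it at -2.20 in WT, behind Tnfsf12 at -2.73. Its FPKM were 10.6, 11.5 and 11.1 in untreated WT, 7.82, 7.69 and 8.15 in untreated Pim1-/-, 1.27, 1.50 and 1.32 in WT after LPS, and 1.36, 1.22 and 1.67 in Pim1-/- after LPS. The genotypes were apart before LPS, at -0.44 (adjusted p = 2.16e-05), and overlapped after it, at 0.03 (interval -0.11 to 0.17, adjusted p = 0.703), where quantile normalization gave -0.09. LPS left 12.3% of the level in WT and 18.0% in Pim1-/-, and the responses differed by 0.47 (SE 0.0935, adjusted p = 4.76e-04).

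**Figure D3:**
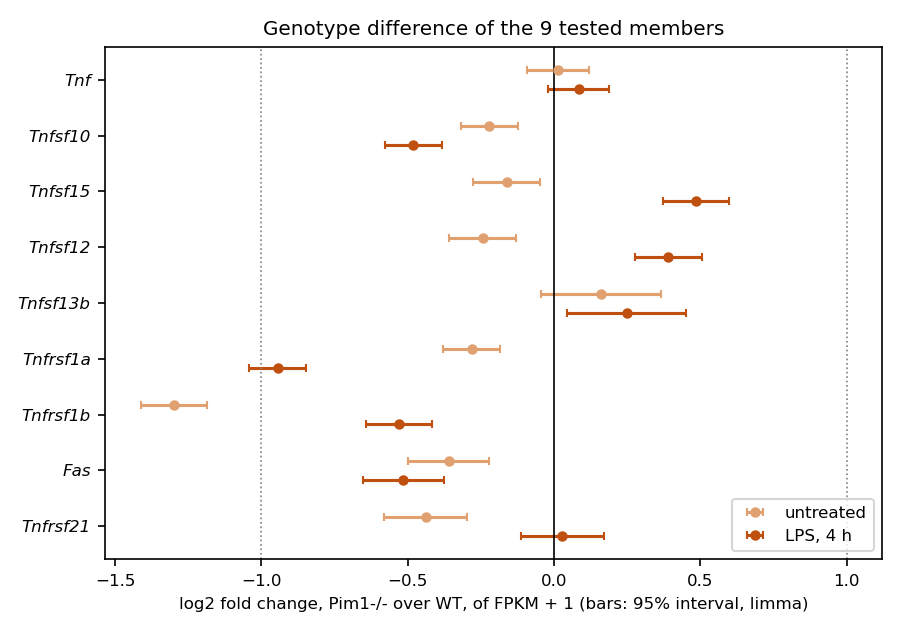
Log2 fold change of Pim1-/- over WT (horizontal axis, on FPKM + 1) for the 9 tested members, in untreated cells (light) and after LPS (dark). Points are estimates, bars 95% intervals from limma, and dotted lines mark 2-fold. Tnfrsf1b in untreated cells, at -1.30, is the only estimate past 2-fold, and Tnfsf12 and Tnfsf15 change sign with LPS.

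Counted over the members, the untreated genotype comparison called 1 of 9 lower (Tnfrsf1b) and 0 higher, where 3.37% of all tested genes were lower and 4.4% higher by the same rule. At an adjusted p under 0.05 without a fold threshold, 7 of 9 were lower and 0 higher, beside 42% and 32.7% of all genes. After LPS, 0 were called in either direction, beside 5.15% lower and 3.51% higher of all genes. Without the fold threshold, 4 were lower (Tnfsf10, Fas, Tnfrsf1a and Tnfrsf1b) and 3 higher (Tnfsf12, Tnfsf13b and Tnfsf15), beside 41.7% and 35.7%. The 3 values of each genotype were apart for 7 of 9 members at either time, beside 78.4% of all genes before LPS and 77.5% after it, so being apart does not set the members off from the table. The median log2 fold change of the members was -0.24 before LPS and 0.03 after it, against -0.05 and -0.03 over all tested genes.

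LPS moved nearly all members. In WT 6 of 9 were called higher and 2 lower, beside 20.1% and 14.7% of all genes. In Pim1-/- 5 were called higher and 2 lower, beside 14.6% and 10.4%. The member that differs between these counts is Tnfrsf1a, whose log2 fold change was 1.61 in WT and 0.95 in Pim1-/-, and 0.62 and 0.25 after quantile normalization. That normalization moved the median of all genes by LPS to -0.17 in both genotypes, and split the called genes of WT into 1853 lower and 1671 higher where the deposited values gave 1556 and 2130. Relative to that median the rises of Tnf, Tnfsf10, Tnfsf15, Fas, Tnfrsf1a and Tnfrsf1b and the falls of Tnfsf12 and Tnfrsf21 kept their direction. For the difference between the responses, 0 of 9 members and 6.67% of all genes passed the 2-fold rule. Without it 4 were higher and 2 lower in Pim1-/-, beside 29.6% and 33.3% of all genes.

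**Figure D4:**
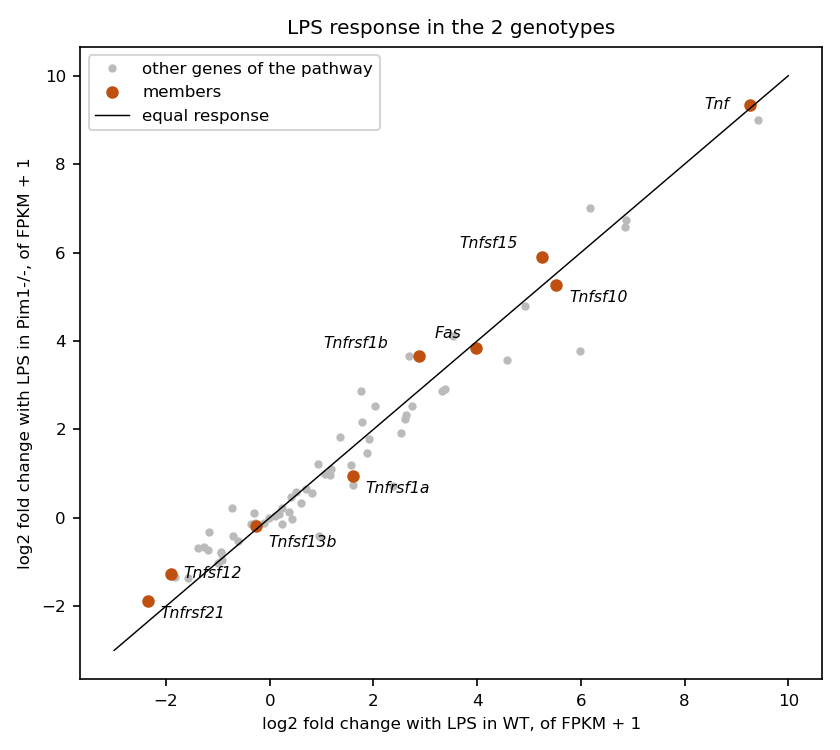
Log2 fold change with LPS in WT (horizontal axis) and in Pim1-/- (vertical axis), both on FPKM + 1, for the 9 tested members (orange) and the other tested genes of the pathway except 1 that is not reported here (grey). The line marks an equal response. Tnf lies on the line at 9.26 and 9.33, Tnfrsf1a below it at 1.61 and 0.95, and Tnfrsf1b above it at 2.89 and 3.66.

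The order of the levels changed with LPS. In untreated WT, Tnfrsf1b (94.0 to 99.2 FPKM over libraries) and Tnfsf12 (93.9 to 101) led and could not be told apart, followed by Tnfrsf1a, Tnfrsf21, and then Fas and Tnf, which overlapped. In untreated Pim1-/-, Tnfsf12 led at 77.6 to 86.0 FPKM, ahead of Tnfrsf1a and Tnfrsf1b. After LPS both genotypes had Tnf, Tnfrsf1b, Tnfrsf1a and Fas as the highest by their means, although Fas (65.4 to 79.1 FPKM) and Tnfsf15 overlapped in Pim1-/-. Next, WT had Tnfsf10 above Tnfsf15 with no overlap (54.4 to 57.0 against 42.8 to 46.0 FPKM), and Pim1-/- had Tnfsf15 above Tnfsf10 (59.2 to 66.9 against 38.3 to 40.6 FPKM). Tnfrsf21, Tnfsf13b and Ltb were the lowest after LPS in both genotypes, at or below 1.67 FPKM.

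The genotypes also differed in general macrophage transcripts and in Actb, and their part in the member differences was not tested. Of the 9 macrophage markers, 8 were lower in untreated Pim1-/- at an adjusted p under 0.05 and 9 after LPS, beside 42% and 41.7% of all genes. By the 2-fold rule 4 and 3 were lower, beside 3.37% and 5.15% of all genes, and the medians were -0.98 and -0.90. Their summed FPKM was 27943 to 29994 in untreated WT, 14411 to 15330 in untreated Pim1-/-, 30856 to 31354 in WT after LPS and 15948 to 17813 in Pim1-/- after LPS, most of it Lyz2. Markers of other cells were low throughout: T and NK cell markers summed to at most 0.586 FPKM, B cell markers to at most 1.57, mast cell and basophil markers to at most 0.208, dendritic cell markers to at most 5.56, stromal markers to at most 5.20 and neutrophil markers to at most 8.20 FPKM. The defining genes Cd3e, Cd3g, Cd8a, Ncr1, Pax5 and Fcer1a were at 0 in all libraries. Of the markers of dendritic cells, neutrophils and stromal cells 5 were tested, all with group means under 5 FPKM. After LPS, Batf3 (-1.58), S100a9 (-1.17), Col1a2 (-0.81) and Dcn (-0.76) were lower in Pim1-/-, and S100a8 was at -0.024 (adjusted p = 0.913). In untreated cells Batf3 (-0.58), Col1a2 (-0.69) and Dcn (-0.48) were lower and S100a8 higher (0.95), with S100a9 at 0.0091 (adjusted p = 0.952). The B cell marker Cd79b was lower at both times (-0.33 and -0.27). In bulk RNA, fewer cells of a kind and less RNA per cell cannot be told apart. Actb, the transcript to which the study scaled its RT-qPCR, was itself lower in Pim1-/- after LPS, at 36.9% of WT. Gapdh, another common reference transcript, chosen after its values had been seen, lay the other way, at 1001 ± 46.2 FPKM in WT and 1197 ± 2.70 in Pim1-/- after LPS, and at 697 ± 17.1 and 1155 ± 27.7 untreated. Per unit of Actb, Tnf was 0.461 to 0.465 in WT and 1.28 to 1.38 in Pim1-/- after LPS. With every library divided by its Actb level the median of all genes moved to 0.96 after LPS, and all 9 members lay above 0: Tnfrsf1a at 0.48, Fas at 0.90, Tnfrsf1b and Tnfsf10 at 0.91, Tnf at 1.53 and Tnfsf15 at 1.86. Tnfrsf1a lay below that median and Tnf and Tnfsf15 above it, while Fas, Tnfrsf1b and Tnfsf10 lay within 1 SE of it. In the deposited values Fas (-0.52), Tnfrsf1b (-0.53) and Tnfsf10 (-0.48) lay below the median of all genes (-0.03). Division by 1 factor a library leaves ratios between genes unchanged. Their closer place to the median under it therefore reflects the pseudocount of 1 and the filter, not a smaller difference from other genes.

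The wider pathway was looked up in 5 lists. Of 12 other TNF superfamily ligands 6 were tested, and after LPS 3 were called, Tnfsf8 (CD30 ligand) and Tnfsf14 (LIGHT) higher in Pim1-/- and Tnfsf9 (4-1BB ligand) lower, where the same rule called 3.51% of all genes higher and 5.15% lower. Tnfsf8 was at 6.62 ± 0.600 FPKM in WT and 20.6 ± 2.14 in Pim1-/- after LPS, a log2 fold change of 1.51. Tnfsf14 was low after LPS, at 0.359 ± 0.0474 FPKM in WT and 2.05 ± 0.168 in Pim1-/-. Tnfsf9 was at 2.87 ± 0.165 FPKM in WT and 7.87 ± 0.889 in Pim1-/- untreated, and at 242 ± 1.94 and 119 ± 6.33 after LPS. It therefore went from higher in Pim1-/- (1.19) to lower (-1.02), and its LPS response differed by -2.21 (adjusted p = 2.85e-11). Of 24 other receptors 12 were tested. After LPS Tnfrsf9 (4-1BB, the receptor of Tnfsf9) was called lower at -1.67, with WT averaging 4.36 and Pim1-/- 0.688 FPKM. Tnfrsf26 was called higher, with WT averaging 2.06 and Pim1-/- 5.95 FPKM. Tnfrsf14 (HVEM, a receptor of Tnfsf14) was called lower in untreated Pim1-/- at -1.32. Cd40, a costimulatory receptor, rose with LPS to the highest level of the list, by 9.41 in WT and 8.99 in Pim1-/-, and stood at 1727 and 1252 FPKM. Without the fold threshold, 8 of the 12 receptors were lower in Pim1-/- after LPS and 3 higher, beside 41.7% and 35.7% of all genes, and the list median was -0.44.

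The adaptors and ubiquitin enzymes that sit next to the receptors were mostly lower in Pim1-/- in the deposited values. All 19 were tested, and 15 were lower at an adjusted p under 0.05 untreated with 0 higher, and 15 lower with 2 higher after LPS, where 42% and 41.7% of all genes were lower by this rule. The medians were -0.26 and -0.37, and 1 passed 2-fold at each time, Birc3 (cIAP2, a ubiquitin ligase of the TNFR2 complex) at -1.10 untreated and Tnip1 (a partner of A20) at -1.01 after LPS. Traf1 and Tnfaip3 (A20, the brake on NF-κB signalling) had the strongest LPS responses of this list. Traf1 rose by 6.87 in WT and 6.73 in Pim1-/-, and Tnfaip3 by 6.86 and 6.58. Tnfaip3 stood at 614 ± 8.35 FPKM in WT and 329.6 ± 11.2 in Pim1-/- after LPS, a log2 fold change of -0.90 that fell short of 2-fold. Of the 15 death effectors, Zbp1, a nucleic acid sensor that feeds RIPK3, was the 1 called in untreated cells, at -1.63, and rose with LPS by 6.17 in WT and 7.01 in Pim1-/-. Cflar, which encodes the caspase 8 regulator FLIP, rose by 4.92 and 4.80. Mlkl, the effector of necroptosis, rose by 4.58 in WT and 3.58 in Pim1-/-. The difference of these responses only just passed the 2-fold rule (adjusted p = 4.30e-08). Mlkl was at 4.44 ± 0.236 FPKM in WT and 7.49 ± 0.697 in Pim1-/- untreated, and at 129 ± 3.08 and 100 ± 3.40 after LPS. Pim1-/- thus stood higher before LPS and lower after it. Of the 7 tested genes that process ligands, Rhbdf2 (iRhom2, which the TNF sheddase ADAM17 needs to mature in macrophages) was called lower after LPS, at 110.2 ± 3.77 FPKM in WT and 53.3 ± 3.86 in Pim1-/-, a log2 fold change of -1.03. Adam17 itself rose with LPS by 2.04 in WT and 2.52 in Pim1-/-.

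**Figure D5:**
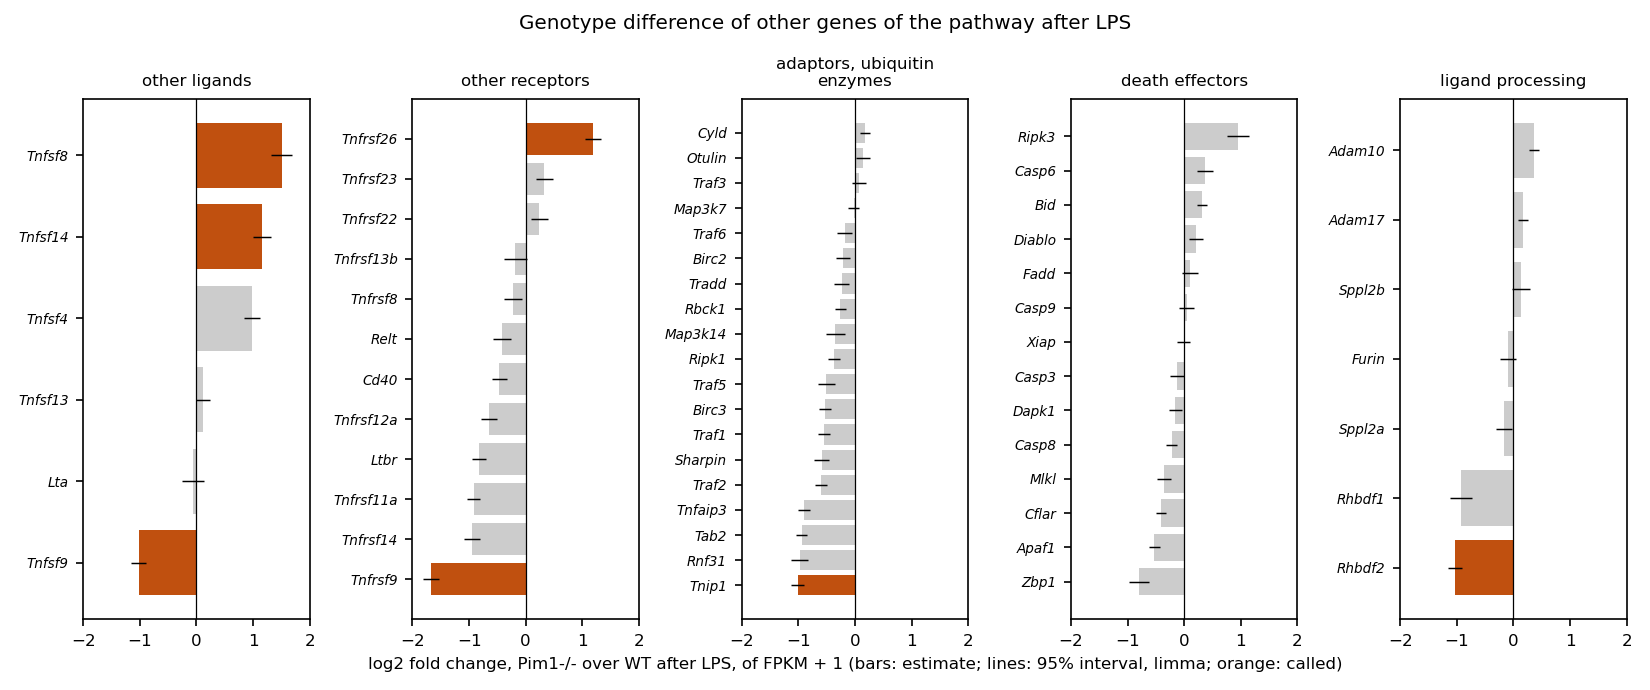
Log2 fold change of Pim1-/- over WT after LPS (horizontal axis, on FPKM + 1) for the tested genes of the 5 pathway lists except 1 that is not reported here, 1 panel a list. Bars are estimates, lines 95% intervals from limma, and orange marks genes past the 2-fold rule. Most receptors and adaptors lie left of 0, with list medians of -0.44 and -0.37, and Tnfrsf9 is the lowest at -1.67.

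The genes whose pattern was most like a member's were taken as the 3 with the highest Pearson's r over the 12 libraries on log2(FPKM + 1). This is a description, since the libraries fall into LPS-treated and untreated ones and nearly every strongly induced gene follows that split. For Tnf they were Il6, Il12b and Apol9b (r of 0.9997 or above). For Tnfsf10 they were Ifi205, Eif2ak2 and Cflar, for Tnfsf15 H2-M2, Trim21 and Olfr56, and for Fas Tor3a, Igtp and Peli1 (r of 0.9993 or above for all 9). For Tnfrsf1b they were Trim14, Axl and Relb, and for Tnfrsf1a Siah2, Actb and 6530402F18Rik, which stood high in LPS-treated WT cells as Tnfrsf1a did. The members that fell with LPS had Hdac5, Cxcr4 and Fam63a for Tnfsf12 and Slx1b, 6430548M08Rik and Inpp5d for Tnfrsf21. For Tnfsf13b, close to 1 FPKM, the highest were Fbxo22, Tbpl1 and Srbd1 with r of 0.85.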

How the data were processed

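RNA-seq values of 12 libraries were used as deposited, 1 FPKM column a library. Per the labels, the authors made stranded poly(A) libraries, and the submitters' processing notes name bcl2fastq 2.20.0.422, cutadapt 1.18, TopHat2 2.0.13 and Cuffdiff 2.2.1 with mm10, while the methods of the study name the rat build rn5 for the alignment. The column carries no unit name; the deposited values were read as FPKM from the naming of Cuffdiff and from their steps, since 71.7% to 80.4% of low values of single-transcript genes lay within 0.1 of a whole fragment. Gene positions are from GENCODE M21 (GRCm38).

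Genes with at least 1 FPKM in 3 libraries were tested on log2(FPKM + 1) with limma 3.58.1 (trend, R 4.3.3) over the 4 group means, with Benjamini-Hochberg adjustment over all of them. Named genes are the 10 members, Pim1, the 3 most alike genes of each tested member, up to 3 called genes of highest fold a list and contrast, markers and Actb, with exceptions stated. The members, lists, motifs and tests were chosen with earlier results of these data known, so counts over lists are descriptions. The untreated and LPS comparisons of 1 genotype share libraries with the comparisons between genotypes. The fits were tested on simulated data. No columns were identical, and no column was left unmatched. Alternatives were another pseudocount, filter, scaling, normalization and samples fitted, the replicate number as a block, and each library left out. Division by Actb was added after the data had been seen. Of the pathway genes, 1 is not reported here.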

Additional observations from a re-analysis of the deposited data

Results flagged for a closer look

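For 6 of the 9 tested members the LPS response differed between the genotypes in the interaction test of limma, at an adjusted p under 0.05 over all tested genes. Of all genes 33.3% passed this threshold downwards and 29.6% upwards, so passing it does not set the members off from the table. On the log2 scale of FPKM + 1 the response in Pim1-/- less that in WT was -0.66 for Tnfrsf1a, 0.77 for Tnfrsf1b, 0.47 for Tnfrsf21, -0.26 for Tnfsf10, 0.63 for Tnfsf12 and 0.65 for Tnfsf15. For Tnfsf12 and Tnfsf15 the 3 libraries of each genotype were apart in opposite directions before and after LPS. For Tnfsf10 the direction depended on the pseudocount. What lies behind these differences was not tested.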

How the results depend on the processing

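Leaving division by Actb aside, 670 member values were recomputed under other settings, of which 656 kept their direction and their side of the 2-fold rule and 10 turned sign. Many of these could not turn sign by design. Other filters, the replicate block, limma without a trend and fits of only the groups compared leave a member's log2 fold change as it was. Median-ratio scaling hardly moves it, with factors of 0.996 to 1.02. The 656 is therefore no measure of robustness. With a pseudocount of 0.1 the members called were 2 untreated and 1 for the difference of responses, through Tnfsf10 (-1.13) and Tnfsf15 (1.36). Beside them, 583 of all 10581 tested genes were called lower untreated and 616 higher with that pseudocount. The Tnfsf10 difference of responses reversed to 0.64. All genes called became 1442 after LPS and 1075 for the difference of responses, where the deposited values gave 916 and 706, and pathway genes called 7 untreated and 10. After quantile normalization 1 member was called for the difference of responses (Tnfrsf1b, 1.12) and 5 pathway genes after LPS, Tnfrsf1a with LPS in WT was 0.62, and 4 values turned sign: Tnfrsf21 after LPS (-0.089), Tnfsf13b with LPS in WT (0.0041) and Pim1-/- (0.033), and Fas for the difference of responses (0.14). Of the 10575 genes tested after that normalization, 430 were called lower and 311 higher for the difference of responses. In the deposited values the 5 pathway lists held 6, 12, 19, 15 and 7 tested genes. Without a fold threshold the members called were 7 after LPS, 7 untreated and 6 for the difference of responses, all genes 8194, 7904, 9453 (LPS in WT), 8954 (LPS in Pim1-/-) and 6657, and pathway genes 48, 46, 56, 52 and 37. The share of lower calls after LPS was 59.5%, and 50.3% with a pseudocount of 0.1. Quantile normalization shrank the lower values of Pim1-/- after LPS, to -0.22 for Tnfsf10, -0.23 for Fas, -0.64 for Tnfrsf1a and -0.33 for Tnfrsf1b. It raised Tnfsf12 to 0.54 and Tnfsf15 to 0.67.

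Leaving out 1 library at a time changed no count of members called by the 2-fold rule, and turned the sign of 3 differences near 0: Tnfrsf21 after LPS (-0.045 to 0.087), Tnf untreated (-0.012 to 0.060) and the Tnfsf13b difference of responses (-0.012 to 0.20).

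Division by Actb, chosen after the data had been seen, gave 3 members called after LPS, 0 untreated and 5 for the difference of responses, and 5185, 1246, 9327, 8060 and 3112 genes in all, in the order used above. It moved the median of all genes to 0.96 after LPS, 0.26 untreated, -1.99 and -1.33 with LPS in WT and Pim1-/-, and 0.72 for the difference of responses, so that a sign under it is not a direction relative to other genes. It turned the sign of Tnfsf10 (0.91), Fas (0.90), Tnfrsf1a (0.48) and Tnfrsf1b (0.91) after LPS, of Tnfsf12 (0.11) and Tnfrsf1a (0.074) untreated, of Tnfrsf1a with LPS in WT (-0.97) and Pim1-/- (-0.56), and of the differences of responses of Tnfsf10 (1.25), Fas (0.97) and Tnfrsf1a (0.41).

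Whether the replicate number pairs libraries depended on the genes used. Over 3646 genes of at least 10 FPKM in every library, same-number deviations correlated at 0.33 to 0.46 between untreated genotypes and 0.43 to 0.68 between the times of Pim1-/-, but at 0.02 to 0.37 between genotypes after LPS and -0.10 to 0.19 between the times of WT. Over the 5416 genes that averaged 10 FPKM or more, no comparison had all 3 above 0.1. With the replicate block, members called were 0 after LPS, 1 untreated, 8 and 7 with LPS in WT and Pim1-/-, and 0 for the difference, the same as without it, and all genes called were 915, 824, 3686, 2649 and 707. Tnf after LPS kept 0.08, with an adjusted p of 0.0532. The resolution of low values limits Tnfsf13b, Ltb and untreated Tnfsf10 and Tnfsf15, all near or under 1 FPKM. It also limits Tnfrsf21 after LPS (1.22 to 1.67 FPKM), and with it the LPS responses of that gene.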
